A study of Mus musculus with 2 samples.

Results

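Haem synthesis and iron handling were followed through 9 genes of 32285 in the count matrices: Alas2, Alad, Urod, Cpox and Fech for the synthesis of haem, and Slc25a37, Tfrc, Fth1 and Ftl1 for the handling of iron. They were chosen by symbol, and each symbol matched 1 row. Their levels were set between red barcodes, in which globin genes gave at least 50% of the unique molecular identifiers (UMIs, each standing for 1 captured transcript), and all other barcodes. The cells came from whole blood of wild-type Mus musculus after burn/tenotomy, an injury that joins a skin burn with the cutting of a tendon. The blood had passed through the iChip, a microfluidic sorter, before barcoding on the 10x Chromium platform, and the labels name the product cMPCs and blood cells. Both libraries, replicate 1 and replicate 2, carry the same genotype and treatment and form 1 group, so every comparison is between classes of barcodes inside the libraries. No uninjured mice were analysed here. Whether the replicates are separate animals is not given by the labels, so p-values measure only the spread between these samples, which may be technical.

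Haem is made in steps that start in the mitochondrion, pass through the cytosol and end in the mitochondrion again. Red cell precursors and reticulocytes, the young red cells that have lost their nucleus but still hold RNA, make most of the body's haem. Iron reaches them bound to transferrin, enters the mitochondrion for insertion into the haem ring, and is stored in ferritin when in surplus. Several of these messages carry an iron-responsive element, a hairpin bound by iron regulatory proteins when iron is scarce: in a 5′ UTR it holds back translation, and in the 3′ UTR of Tfrc it protects the message from decay.

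The iron-responsive elements are shown because they divide the members into messages with a hairpin before the coding region, with hairpins behind it, and with none found. The UTRs of 1 coding transcript per gene in GENCODE M21 (mm10) were searched on the sense strand for a C, any 5 bases, the loop CAGTGN and 5 more bases that can pair with those before the loop, G-U pairs included. Capitals mark the loop, and the sequences run 5′ to 3′ on the message's strand with T for U. The Fth1 site lies at chr19:9982732-9982760 on the forward strand, the Ftl1 site at chr7:45459779-45459807 on the reverse strand, and the Alas2 site spans an exon junction on chromosome X.
Alas2 5′ UTR: ttggttcgtcctCAGTGCagggcaacagg
Fth1 5′ UTR: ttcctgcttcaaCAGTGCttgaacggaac
Ftl1 5′ UTR: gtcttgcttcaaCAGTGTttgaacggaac

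The 3′ UTR of Tfrc held 4 matches, at chr16:32631219-32631247, chr16:32631598-32631626, chr16:32631663-32631691 and chr16:32631710-32631738 on the forward strand, listed in that order.
Tfrc 3′ UTR, match 1: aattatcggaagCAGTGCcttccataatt
Tfrc 3′ UTR, match 2: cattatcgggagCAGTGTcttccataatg
Tfrc 3′ UTR, match 3: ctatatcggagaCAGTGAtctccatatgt
Tfrc 3′ UTR, match 4: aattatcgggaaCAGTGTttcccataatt

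No match was found in the UTRs of Alad, Urod, Cpox, Fech or Slc25a37. The same search matched 21 of 20579 5′ UTRs (0.102%) and 111 of 20738 3′ UTRs (0.535%). A match describes letters in the reference and is no measurement of binding. All 9 members are annotated as protein-coding: Alas2 on chromosome X, Alad and Urod on 4, Cpox and Tfrc on 16, Fech on 18, Slc25a37 on 14, Fth1 on 19 and Ftl1 on 7.

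Replicate 1 held 1008 barcodes with 3967318 UMIs and replicate 2 held 849 with 3329292. Red barcodes were 474 in replicate 1 (47.0%) and 373 in replicate 2 (43.9%). Levels are UMIs per 10000 non-globin, non-mitochondrial UMIs of a class sum, a scale that held 372471 and 284078 UMIs in red barcodes, and 312326 and 244655 in the others. All 16 genes of a red cell list without globins or members were detected in red barcodes of both libraries, with a summed level of 282 and 285, against 7.97 and 26.7 in other barcodes. The neutrophil, monocyte, lymphocyte, platelet, mesenchymal and mesothelial lists each summed to at most 0.617 in red barcodes. The libraries differed in the barcodes of 5 to under 50% globin, which numbered 15 in replicate 1 (1.49%) and 124 in replicate 2 (14.6%). Loci that overlap ribosomal RNA, such as Gm42418, filled 66.9% of the scale of these barcodes in replicate 1 and 72.3% in replicate 2, and results against other barcodes are also given against those under 5% globin. The red cell list summed to 103 and 72.7 in barcodes of 5 to under 50% globin, against 1.27 and 1.33 in those under 5%. The libraries had 0 barcode sequences in common, and doublets were neither called nor removed.

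Most haem and iron transcripts lay in red barcodes. Of 33602 member UMIs, 32040 (95.3%) were there, and Alas2, Ftl1, Slc25a37, Fth1 and Fech gave 99.4% of all of them. Members made up 4.92% and 4.83% of the red scale, against 0.169% and 0.422% of the scale of other barcodes. Of the 7 members that passed the filter on low counts, 6 were higher in red barcodes and 0 lower (edgeR quasi-likelihood test with Benjamini-Hochberg adjustment over 3391 genes). Urod passed that filter through its red sums alone, so it had to differ, and without it 5 of 6 were higher. Over all genes tested, 8.35% were called higher and 82.0% lower. At an unadjusted p under 0.05, and by DESeq2, the number of members lower was likewise 0. The median log2 fold change was 4.03 for Ftl1, the middle of the 7, and -5.91 over all genes tested.

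**Figure D1:**
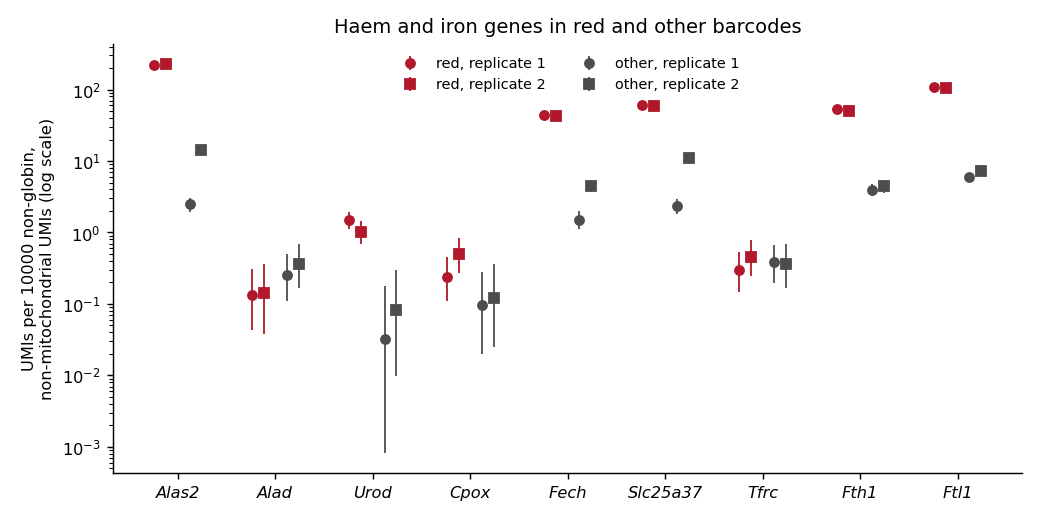
Levels of the 9 members in red barcodes (left of each pair) and other barcodes, in UMIs per 10000 non-globin, non-mitochondrial UMIs on a log axis, with a circle for replicate 1, a square for replicate 2 and exact Poisson 95% intervals as bars. For Alas2, Urod, Fech, Slc25a37, Fth1 and Ftl1 both red values lie above both other values. Alad, Cpox and Tfrc rest on 9, 23 and 24 UMIs in red barcodes. Both red values lie above both other values for Cpox and below them for Alad, and those of Tfrc overlap.

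Alas2 encodes the erythroid form of the enzyme that starts haem synthesis and sets its pace in red cell precursors. Its level was 223 and 226 in red barcodes of replicates 1 and 2 (mean 225 ± 2.12, SD, n = 2), against 2.46 and 14.2 in other barcodes (8.35 ± 8.32, SD, n = 2). The red values nearly coincide, the other values differ several-fold between the libraries, and the classes do not overlap. The log2 fold change was 5.23 (SE 1.11; edgeR, adjusted p = 5.51e-06), with 6.49 in replicate 1 alone and 3.99 in replicate 2 alone. Against barcodes under 5% globin, where Alas2 had 7 and 5 UMIs in all, it was 9.67 (edgeR, adjusted p = 1.83e-123). This alternative, also given for other members below, was chosen after seeing the data. It leaves out barcodes by the globin share that sets the classes, so its values are a description for every member.

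Fech encodes ferrochelatase, which inserts iron into the ring in the last step. Its level was 44.5 and 42.3 in red barcodes, against 1.51 and 4.46 in other barcodes. The classes do not overlap, and the log2 fold change was 4.05 (SE 0.82; edgeR, adjusted p = 1.69e-06), with 4.87 in replicate 1 and 3.24 in replicate 2. Against barcodes under 5% globin it was 6.38 (edgeR, adjusted p = 1.2e-42). Urod encodes the enzyme that trims the side chains of uroporphyrinogen in the cytosol. It had 56 and 29 UMIs in red barcodes, a level of 1.503 and 1.02, against 1 and 2 UMIs in other barcodes, a level of 0.032 and 0.0818. Its log2 fold change was 4.45 (SE 0.91; edgeR, adjusted p = 2.02e-06), with 4.98 in replicate 1 and 3.35 in replicate 2, and 5.605 against barcodes under 5% globin (edgeR, adjusted p = 1.72e-07). With neither other sum reaching the filter, Urod was tested for its red UMIs alone, and its calls are a description.

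The remaining enzymes were near the limit of detection. Alad, which joins the products of the starting enzyme into porphobilinogen in the cytosol, had 5 and 4 UMIs in red barcodes and 8 and 9 in other barcodes. Cpox, the mitochondrial enzyme after Urod, had 9 and 14 UMIs in red barcodes and 3 and 3 in other barcodes. Both fell below the filter on low counts and were not tested. Without that filter neither was called (edgeR, adjusted p = 0.393 for Alad and 0.199 for Cpox). With all UMIs as the library size, globin included, Alad was tested and called lower in red barcodes, with a log2 fold change of -3.14 (edgeR, adjusted p = 5.91e-05), where the median of all genes was -7.64. In red barcodes of a library 3 UMIs correspond to a level of 0.0805 and 0.106.

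Slc25a37 encodes mitoferrin 1, the carrier that brings iron into the mitochondrion of red cell precursors. Its level was 60.4 and 59.1 in red barcodes, against 2.34 and 11.0 in other barcodes. Replicate 2 again had the higher value of the other barcodes, below both red values. Of its 270 Slc25a37 UMIs in other barcodes, 266 lay in those of 5 to under 50% globin, against 51 of 73 in replicate 1. The log2 fold change was 3.54 (SE 0.86; edgeR, adjusted p = 6.32e-05), with 4.68 in replicate 1 and 2.42 in replicate 2, and it was 6.81 against barcodes under 5% globin (edgeR, adjusted p = 3.75e-52).

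Fth1 and Ftl1 encode the heavy and light chains of ferritin, the shell that stores iron. Fth1 had a level of 53.4 and 49.7 in red barcodes, against 3.94 and 4.41 in other barcodes, and its log2 fold change was 3.63 (SE 0.81; edgeR, adjusted p = 1.43e-05), with 3.76 and 3.49 in the single libraries. Ftl1 had a level of 108 and 104 in red barcodes, against 5.92 and 7.15 in other barcodes, and its log2 fold change was 4.03 (SE 0.91; edgeR, adjusted p = 1.73e-05), with 4.19 and 3.86 in the single libraries. For both chains the classes do not overlap and the libraries lie close together. Against barcodes under 5% globin the log2 fold change was 3.58 for Fth1 and 4.44 for Ftl1 (edgeR, adjusted p = 1.31e-22 and 1.37e-39). A near-identical copy, Ftl1-ps1, had 21 and 19 UMIs in red barcodes and 4 and 6 in others, so reads that could belong to it may be split between the rows.

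Tfrc encodes the transferrin receptor, through which precursors take up iron, and which reticulocytes are known to shed as they mature. It had 11 and 13 UMIs in red barcodes, a level of 0.295 and 0.458, against 12 and 9 UMIs in other barcodes, a level of 0.384 and 0.368. The classes overlap, and no difference was called: the log2 fold change was -0.04 (SE 0.79; edgeR, adjusted p = 0.964), and its sign changed under other scalings. With all UMIs as the library size, globin included, it was called lower at -2.06 (edgeR, adjusted p = 0.00702). In that setting 4887 of 5238 genes tested were called lower, and the median of all genes was -7.64. Tfrc was the member of the 7 tested with no call.

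Trimmed-mean (TMM) scaling gave factors of 0.332 and 0.777 to the red sums. All 6 fold changes were larger with it, but 1 call was left. That call was of Urod, tested for its red UMIs alone, so it is a description. The adjusted p of the other 5 then ran between 0.0908 and 0.133 (edgeR). With all UMIs as the library size the red level is divided by globin as well, and Slc25a37 was no longer called, at a log2 fold change of 1.496.

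Alas2 and ferritin differed in where their remaining UMIs lay. Per 1000000 globin UMIs, Alas2 gave 2863 and 2604 UMIs in red barcodes, and 2640 (exact Poisson 95% interval 1062 to 5440) and 2836 (921 to 6618) in barcodes under 5% globin. The interval of each library held its red value, but these barcodes held only 7 and 5 Alas2 UMIs. Barcodes of 5 to under 50% globin held 70 and 343. There Alas2 gave 6408 (4995 to 8096) and 10179 (9130 to 11315) per 1000000 globin UMIs, above the red values. Fth1 gave 685 and 572 per 1000000 globin UMIs in red barcodes, against 44512 and 41407 in barcodes under 5% globin. For each Alas2 UMI there were 0.239 and 0.220 Fth1 UMIs in red barcodes, against 16.9 (7.93 to 42.8) and 14.6 (5.98 to 46.3) in barcodes under 5% globin. Fech also exceeded its red ratio to globin in barcodes under 5% globin, with 571 and 487 in red barcodes against 5281 (2887 to 8861) and 5105 (2334 to 9691). Slc25a37 gave 775 and 680 in red barcodes, against 8299 (5201 to 12564) and 2269 (618 to 5809) in barcodes under 5% globin. In those barcodes the neutrophil, monocyte and lymphocyte lists summed to 166, 9.49 and 53.2 in replicate 1 and to 1.46, 5.19 and 15.5 in replicate 2. The platelet, mesenchymal and mesothelial lists summed to 21.2, 11.8 and 19.1 in replicate 1 and to 30.2, 37.4 and 55.2 in replicate 2. The part of these cells in the ferritin signal was not tested.

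At equal depth most red barcodes held Alas2. After each barcode was thinned to 100 non-globin, non-mitochondrial UMIs, Alas2 was found in 86.1% (exact binomial 95% interval 82.6 to 89.0) and 88.6% (85.0 to 91.7) of red barcodes, against 2.53% (0.825 to 5.79) and 16.6% (11.96 to 22.1) of other barcodes. Thinning left out 1 and 3 red barcodes, and 336 and 253 other barcodes that were shallower. Unthinned, the shares were 99.8% and 99.2% of red barcodes, against 3.56% and 21.4% of other barcodes, at a median of 721 and 688 scale UMIs per red barcode and 51.5 and 80.5 per other barcode. Thinned shares of Slc25a37 were 44.4% and 43.5% of red barcodes against 2.53% and 15.7% of others, and those of Fth1 were 31.9% and 35.1% against 6.06% and 6.73%. In barcodes under 5% globin, which serve as background, Alas2 had a UMI in 1.16% and 1.42%. These shares are not thinned, and such barcodes had a median of 47 scale UMIs in both libraries. All 5 abundant members were found together in 326 red barcodes of replicate 1 (68.8%) and 241 of replicate 2 (64.6%), against 1 and 11 other barcodes, without thinning.

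Among red barcodes Fth1 was the least evenly spread of the 5 abundant members. Over red barcodes of at least 200 scale UMIs (473 and 365), the level of Alas2 ran between 35.4 and 703 in replicate 1 around a median of 230, and between 8.61 and 724 in replicate 2 around a median of 227. No such barcode lacked Alas2 (0). Fth1 was absent from 99 and 82 of them, had a median of 31.3 and 33.4, and reached 1088 and 475. The 10% of barcodes with most Fth1 UMIs held 47.5% and 41.4% of them, while the 10% with most Alas2 UMIs held 18.5% and 19.7%, and the deepest 10% held 19.4% and 20.9% of all scale UMIs. Fech, Slc25a37 and Ftl1 lay between, with 25.8% to 29.2%. Fech had fewer UMIs in red barcodes than Fth1, with 1657 and 1202 against 1988 and 1411. It was absent from 29 and 30 of the barcodes of at least 200 scale UMIs, and its top 10% held 26.4% and 27.0%. Counting widens the spread of every member with few UMIs per barcode, and its part was not tested.

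**Figure D2:**
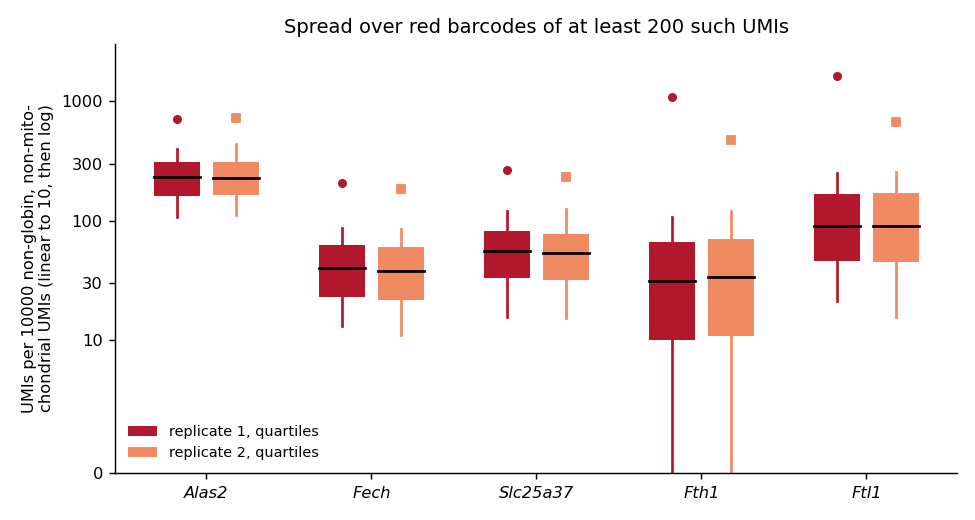
Spread of 5 members over red barcodes of at least 200 non-globin, non-mitochondrial UMIs, in UMIs per 10000 of these on an axis that is linear to 10 and logarithmic above. Boxes span the quartiles with the median as a black line, whiskers leave out the lowest and highest 10%, and a point marks the highest barcode; the Fth1 whisker reaches 0 in both libraries, while no barcode lacked Alas2.

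The next comparison asked how the members vary with haemoglobin among red barcodes, on a scale that holds no globin. Barcodes of at least 90% globin numbered 173 and 162, and those of 50 to under 90% numbered 301 and 211. Both ferritin chains rose with it, by more than any other member tested had in its estimate. Of 6 members tested, 4 were higher in barcodes of at least 90% globin and 0 lower (edgeR, over 496 genes), where 41.7% of all genes tested were higher and 6.25% lower. At an unadjusted p under 0.05, and by DESeq2, 0 members were lower, and DESeq2 called 3 higher. Over all genes the median log2 fold change was 0.53, on a scale of which ribosomal RNA loci took 40.2% and 36.8% of the scale at 90% globin or more, against 55.9% and 52.9% below it. With these loci left out the median was 0.08, and values are therefore also given in that way.

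Fth1 had a level of 91.2 and 81.6 in barcodes of at least 90% globin (mean 86.4 ± 6.77, SD, n = 2), against 33.5 and 29.5 in those of 50 to under 90% (31.5 ± 2.87, SD, n = 2). The log2 fold change was 1.46 (SE 0.10; edgeR, adjusted p = 1.21e-38) and 1.02 without ribosomal RNA loci. Ftl1 had a level of 176 and 171 in the higher-globin barcodes, against 72.3 and 61.7 in the lower-globin ones, a log2 fold change of 1.37 (SE 0.09; edgeR, adjusted p = 2.15e-43) and 0.94 without these loci. Neither chain's classes overlap. On the scale of all UMIs, which globin fills, the log2 fold change was 0.03 for Fth1 and -0.05 for Ftl1, with no call.

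Alas2 had a level of 289 and 297 in barcodes of at least 90% globin, against 188 and 181 in those of 50 to under 90%. The log2 fold change was 0.67 (SE 0.08; edgeR, adjusted p = 2.37e-15), smaller than that of either ferritin chain, and 0.23 without ribosomal RNA loci. With size factors of the DESeq2 kind it was 0.15 and no longer called, and on the scale of all UMIs it was -0.76. Fech had a level of 50.3 and 47.1 in the higher-globin barcodes, against 41.4 and 39.3 in the lower-globin ones. Its call was weak, with a log2 fold change of 0.27 (SE 0.10; edgeR, adjusted p = 0.0203). It was lost with DESeq2 (adjusted p = 0.0814), without a filter on low counts (edgeR, adjusted p = 0.149) and without the replicate block (edgeR, adjusted p = 0.076), and the sign turned to -0.16 without ribosomal RNA loci.

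Slc25a37 showed no such rise. Its level was 59.1 and 60.6 in barcodes of at least 90% globin, against 61.1 and 58.1 in those of 50 to under 90%, so the classes overlap. The log2 fold change was 0.01 (SE 0.10; edgeR, adjusted p = 0.968). Without ribosomal RNA loci it was -0.43 and called lower (edgeR, adjusted p = 7.85e-06). Relative to the median of all genes it lay at -0.53, against 0.92 for Fth1, 0.84 for Ftl1, 0.13 for Alas2, -0.26 for Fech and -0.35 for Urod. Urod, with 21 and 12 UMIs in the higher-globin and 35 and 17 in the lower-globin barcodes, was not called (edgeR, adjusted p = 0.724). Alad, Cpox and Tfrc had at most 10 UMIs in a sum and were not tested.

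Ratios between members need no scale and gave the same order. There were 1.54 (95% interval 1.41 to 1.69) and 1.35 (1.22 to 1.49) Fth1 UMIs for each Slc25a37 UMI in barcodes of at least 90% globin, against 0.549 (0.504 to 0.599) and 0.507 (0.455 to 0.565) in those of 50 to under 90%. Ftl1 per Alas2 was 0.610 and 0.574 in the higher-globin barcodes, against 0.384 and 0.340 in the lower-globin ones. Slc25a37 per Alas2 was 0.204 and 0.204 in the higher-globin barcodes, against 0.324 and 0.320 in the lower-globin ones. For these ratios the intervals of the classes do not overlap in either library. The ferritin chains kept nearly 1 ratio, with 1.94 and 2.09 Ftl1 UMIs per Fth1 UMI in the higher-globin barcodes, against 2.16 and 2.09 in the lower-globin ones, and here the intervals overlap.

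**Figure D3:**
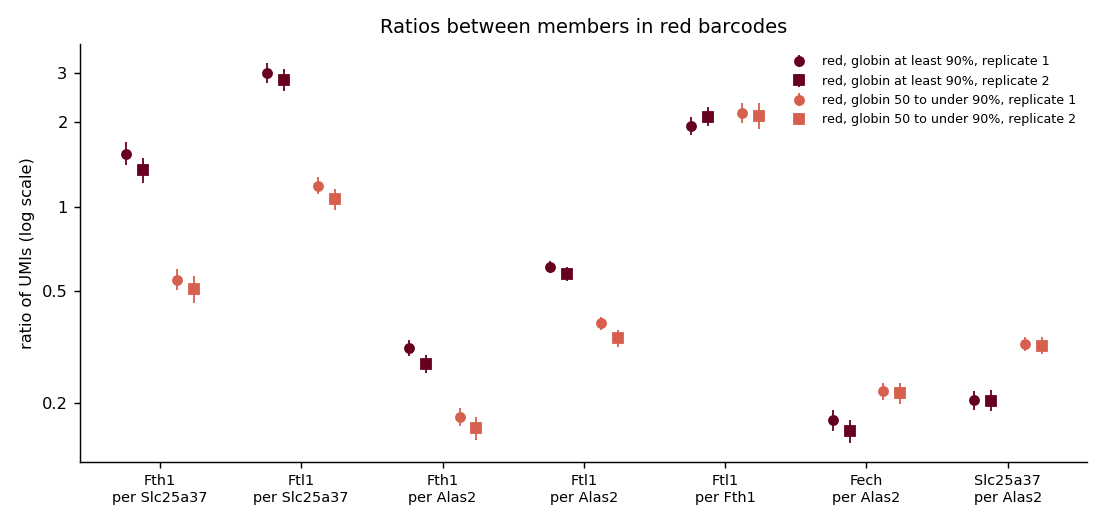
Ratios of the UMIs of pairs of members in red barcodes of at least 90% globin (left of each pair, dark) and of 50 to under 90% globin (light), on a log axis, with exact 95% intervals that cover counting error. Fth1 and Ftl1 per Slc25a37 or per Alas2 are higher at 90% globin or more, Fech and Slc25a37 per Alas2 are lower, and Ftl1 per Fth1 overlaps.

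The members parted further in finer ranges of the globin share. Alas2 had a level of 84.8 and 116 at 50 to 60% globin, 173 and 171 at 70 to 80%, 281 and 275 at 90 to 95%, and 374 and 420 at 95 to 100%. Fth1 had 8.72 and 6.07, then 18.9 and 21.2, then 89.0 and 79.7, and then 114 and 92.0 in the same ranges. Slc25a37 had its highest level at 70 to 80% globin, with 69.8 and 71.4, and 59.8 and 60.1 at 95 to 100%. Thus Alas2 and Fth1 were highest in the barcodes richest in globin, while Slc25a37 was highest in the middle. The mitochondrial share of all UMIs was lower along the same ranges, with 3.61% and 1.78% at 50 to 60% and 0.0803% and 0.0869% at 95 to 100% globin. The ranges of 50 to 60% hold 18 and 20 barcodes, and the part of mitochondrial RNA in these patterns was not tested.

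**Figure D4:**
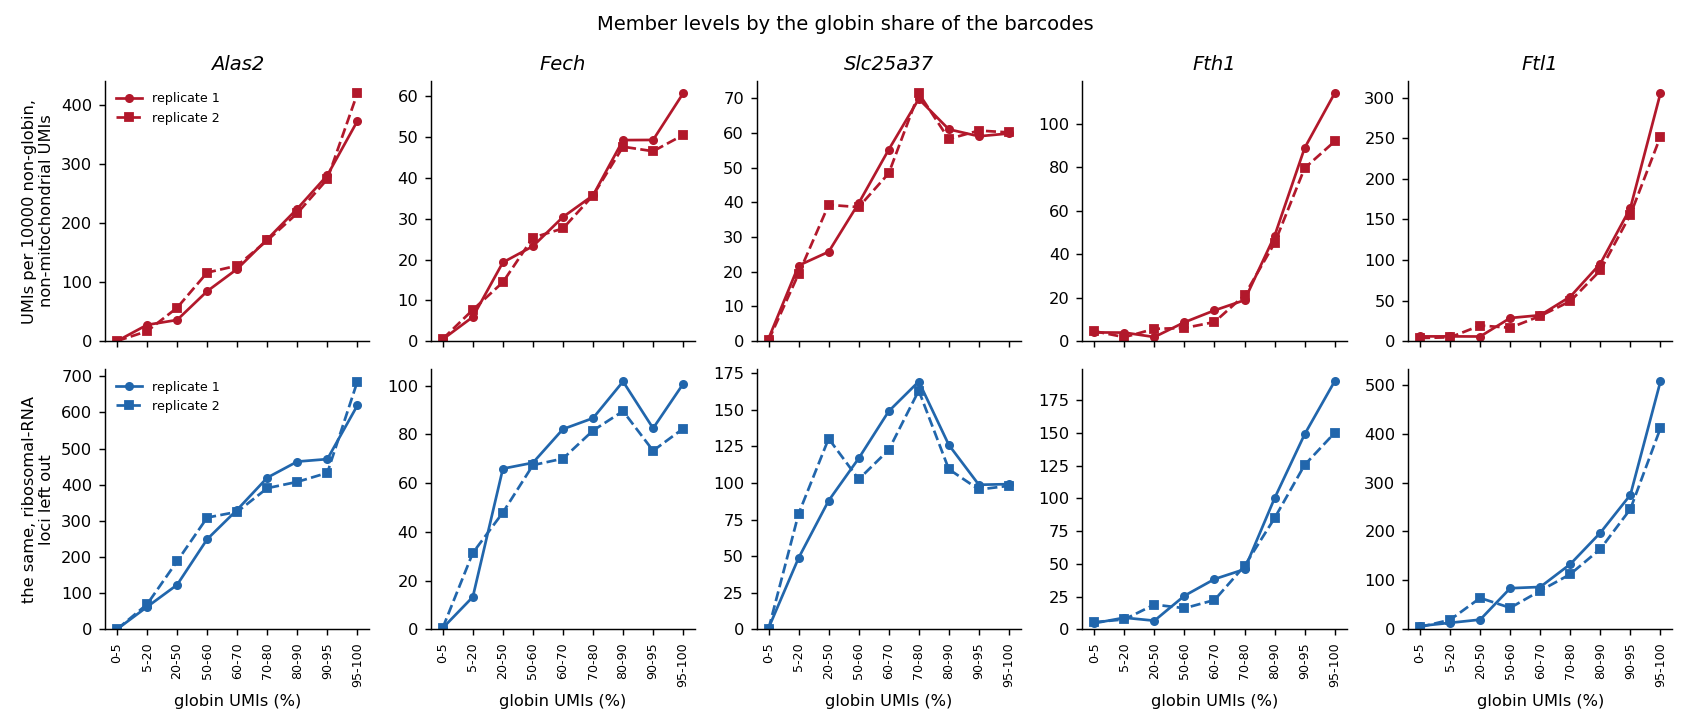
Levels of 5 members over 9 ranges of the globin share of the barcodes, in UMIs per 10000 non-globin, non-mitochondrial UMIs (upper row) and with ribosomal RNA loci left out (lower row), a line for each library. Fth1 and Ftl1 climb mainly above 80% globin, and Slc25a37 peaks at 70 to 80% in both rows.

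Across red barcodes of at least 200 scale UMIs, the Spearman correlation with the globin share was 0.69 and 0.74 for Ftl1, 0.62 and 0.65 for Alas2, 0.49 and 0.54 for Fth1, 0.21 and 0.22 for Fech, and -0.02 and 0.03 for Slc25a37 (473 and 365 barcodes of the same libraries). Without ribosomal RNA loci the values were 0.57 and 0.64 for Ftl1, 0.34 and 0.38 for Alas2, 0.41 and 0.47 for Fth1, -0.02 and 0.01 for Fech, and -0.24 and -0.18 for Slc25a37. The barcodes share library, scale and a fixed total, so these values describe the barcodes and carry no p.

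Of 49 further haem and iron genes with a row, 18 were tested between red and other barcodes. In red barcodes 9 were higher and 6 lower, with a median log2 fold change of 1.95 (edgeR; -5.91 over all genes), where 8.35% of all genes tested were higher and 82.0% lower. All 6 lower genes passed the filter through other barcodes alone, and Hebp1 passed it through red barcodes alone, so these 7 had to differ. The counts by role include these 7. Higher were 3 of 5 transporters tested, 3 of 4 genes of iron-sulphur clusters and iron sensing, and 2 of 3 of haem breakdown and binding, Hebp1 among them. In the other roles with a test, 1 of 2 genes of iron storage and delivery was higher. The same held for 0 of 2 genes of iron uptake and reduction and 0 of 2 regulators. Among transporters, Slc25a39, which carries glutathione into mitochondria, had a level of 36.5 and 38.3 in red barcodes, against 0.865 and 3.23 in other barcodes, a log2 fold change of 4.45 (SE 0.82; edgeR, adjusted p = 1.46e-07). Fam210b, a mitochondrial protein of erythroid cells, rose by 4.11, and Slc48a1, a haem transporter, by 3.52 on the log2 scale (edgeR, adjusted p = 1.1e-09 and 1.24e-07). Ncoa4, the receptor that sends ferritin to degradation, had 14.6 and 12.6 in red barcodes, against 0.865 and 3.27 in others, a log2 fold change of 2.96 (edgeR, adjusted p = 1.62e-05). The libraries differed in size here: in replicate 1 alone and replicate 2 alone the log2 fold change was 5.37 and 3.56 for Slc25a39, 4.61 and 3.57 for Fam210b, 4.11 and 2.92 for Slc48a1, and 4.06 and 1.94 for Ncoa4.

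Genes of iron-sulphur cluster assembly were among those that rose. Glrx5, a glutaredoxin of this pathway, had a level of 15.7 and 18.1 in red barcodes, against 0.064 and 0.777 in others, a log2 fold change of 5.71 (SE 0.78; edgeR, adjusted p = 6.55e-12). Isca1 and the scaffold gene Iscu were higher by 5.04 and 3.93 on the log2 scale (edgeR, adjusted p = 2.32e-10 and 1.04e-08). Blvrb, a biliverdin reductase, and Hebp1, which binds haem, were higher by 4.17 and 3.52 (edgeR, adjusted p = 6.28e-09 and 2.58e-06). In replicate 1 alone and replicate 2 alone, Glrx5 was higher by 7.62 and 4.51, Isca1 by 5.68 and 4.43, and Blvrb by 4.68 and 3.65. For each of these 9 genes both red values lay above both other values.

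Lower in red barcodes were Flvcr1, a haem exporter at the cell surface, Ireb2, which encodes iron regulatory protein 2, Bach1, a repressor that senses haem, Pgrmc1, which binds haem, and Trf, which encodes transferrin. Their calls follow from the filter, and 0 pathway genes were called lower at a count minimum of 30 and 1 with TMM factors (edgeR). Trf had 0 and 1 UMIs in red barcodes and 29 and 39 in others. The rest had 0 UMIs among 656549 in red barcodes. Their levels in other barcodes were 10.6-fold (Flvcr1), 16.1-fold (Ireb2), 14.5-fold (Bach1) and 11.4-fold (Pgrmc1) a red floor of 3 UMIs over both libraries. These ratios leave out the counting error of the other barcodes. The genes were tested for their UMIs in other barcodes alone, so the ratios are a description. Clpx, the sixth gene called lower and outside the naming rule, was likewise at 0. Of the enzymes absent from the member list, Alas1, the form used outside red cells, had 0 UMIs in red and 5 in other barcodes, while Ppox had 7 and 4 UMIs in red barcodes, and Uros 1 and 0.

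Between red barcodes of at least 90% and of 50 to under 90% globin, 11 of the 49 were tested, 9 were higher and 0 lower (edgeR; 0 lower also by unadjusted p under 0.05 and by DESeq2), where 41.7% of all 496 genes tested were higher and 6.25% lower. With ribosomal RNA loci left out 5 were higher, and on the scale of all UMIs 9 were lower. Hebp1, Iscu, Glrx5 and Isca1 had log2 fold changes of 1.14, 0.94, 0.94 and 0.92 (edgeR, adjusted p between 1.69e-10 and 2.61e-05). Slc25a39 had 44.0 and 50.05 at 90% globin or more, against 32.5 and 30.9 below it, a log2 fold change of 0.56 (SE 0.11; edgeR, adjusted p = 1.56e-06). Ncoa4 had 16.7 and 14.2, against 13.6 and 11.5, and was not called (edgeR, adjusted p = 0.0807).

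**Figure D5:**
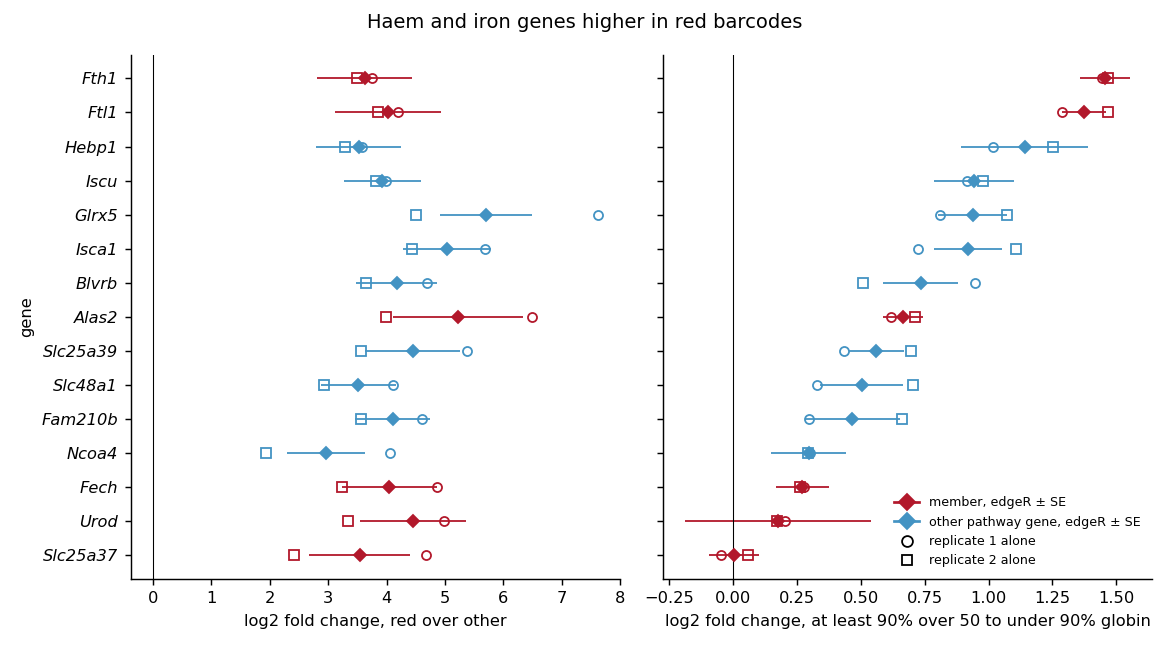
Log2 fold changes of members (red) and other pathway genes (blue) that were higher in red barcodes and tested in both comparisons, for red over other barcodes (left) and for at least 90% over 50 to under 90% globin (right), as edgeR estimates ± SE with each library alone as open symbols. In the right panel Fth1 and Ftl1 lie highest at 1.46 and 1.37 and Slc25a37 lowest at 0.01. Of the members, Fech, Urod and Slc25a37 turn negative without ribosomal RNA loci.

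The genes most like Alas2 over 8 sums (both libraries by at least 90% globin, 50 to under 90%, other with at most 20% mitochondrial UMIs, and other with more), among 1050 genes, were Bpgm, Ube2c, Tent5c, Rnf10 and Ube2l6, with Pearson's r of log2(level + 1) between 0.9973 and 0.9984. Those most like Fth1 were Rpl41, Tpt1, Rplp0, Rplp2 and Serf2, with r between 0.9913 and 0.9983. The sums share libraries and fall into red and other classes, so these values rank likeness alone. The patterns differ in the other barcodes of over 20% mitochondrial UMIs: Alas2 had 2.02 and 3.02 there and 2.59 and 16.4 in those of at most 20%, while Fth1 had 9.39 and 12.1 there and 2.39 and 2.93 in those of at most 20%.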

How the data were processed

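The deposited files hold raw UMI counts per gene and barcode for 2 libraries, which the authors did not normalize as far as the whole numbers show. Cell Ranger 7.1.0, Seurat 5 and mm10 come from the submitters' processing notes, which give no role for them; the sources used here do not give how barcodes were called. The members and lists were chosen with earlier results of these data known.

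Counts were summed per library and class over all barcodes (no barcode filter), giving 4 sums per comparison, and compared by edgeR 4.0.16 (R 4.3.3): filterByExpr (minimum count 10), library sizes of non-globin, non-mitochondrial UMIs without further scaling, the library as a block, the quasi-likelihood test and Benjamini-Hochberg adjustment over all genes at 0.05. This leaves 1 residual degree of freedom, so p-values rest mostly on the spread shared across genes. The library pairs the classes because both come from the same library. DESeq2 1.42.0, other scalings, filters and thresholds were alternatives. All members were named; of other pathway genes, the called ones with the same direction in both libraries and the most UMIs, at most 14. The values of 1 gene of the pathway list are not reported here. Intervals and floors (3 UMIs) cover counting error only; ratio intervals are exact binomial ones, transformed. Sequences and UTRs came from the GENCODE M21 annotation and transcripts (mm10), with the principal and then the longest coding transcript of each gene.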

Additional observations from a re-analysis of the deposited data

How the results depend on the processing

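Between red and other barcodes, TMM factors left 1 member higher, Urod. All UMIs as library size gave 5 higher and 2 lower, Alad and Tfrc. Under every other alternative with a test 6 members were higher, Urod among them. Tfrc, never called higher, turned positive with TMM factors (1.91), size factors of the DESeq2 kind (1.43), ribosomal RNA loci left out (0.47), at least 100 genes (0.15) and a globin threshold of 40% (0.96). Lower pathway genes numbered 1 with TMM factors, 12 without a filter, 0 at a count minimum of 30 and 15 with all UMIs. Over all genes, the number higher was 457 with DESeq2-kind factors and 78 with all UMIs, and the number lower was 1422 with TMM factors, 5528 without a filter, 840 at a count minimum of 30 and 4887 with all UMIs.

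Among red barcodes the log2 fold change of Urod, Slc25a37 and Fech was -0.29, -0.46 and -0.20 with TMM factors, -0.35, -0.51 and -0.25 with DESeq2-kind factors, -1.22, -1.42 and -1.15 with all UMIs and -0.25, -0.43 and -0.16 without ribosomal RNA loci, also with at most 20% mitochondrial UMIs. With all UMIs Ftl1 was -0.049 and Alas2 -0.76. Members called higher were then 0 and lower 4; with DESeq2-kind factors 2 were higher and 1 lower, and 1 was lower with TMM factors and without ribosomal RNA loci. Pathway genes higher numbered 4 with either factor, 5 without these loci and 0 with all UMIs, where 9 were lower. All genes called higher and lower were 104 and 96 with TMM factors, 90 and 109 with DESeq2-kind factors, 110 and 10 with DESeq2, 108 and 89 without ribosomal RNA loci, and 0 and 318 with all UMIs; 20 were lower without a filter and 17 at a threshold of 80%. The share higher among called genes was 87.0% as reported, 54.8% without ribosomal RNA loci, 52.0% with TMM and 45.2% with DESeq2-kind factors. The cause was not tested, beyond the change of scale itself.

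Without the replicate block, 6 members were higher in red barcodes and 3 in those of at least 90% globin, where Fech lost its call (edgeR, adjusted p = 0.076), as it did without a filter on low counts (0.149); the block changed no other member's call. Leaving out a library gives values with no test. The Alas2 share over both libraries was 69.7% of red and 4.05% of other barcodes when thinned to 50 UMIs and 99.5% of red ones unthinned; leaving out a library gave 2.53% to 16.6% of other barcodes at 100 UMIs. Depth limits Alad, Cpox, Tfrc and Urod, with 26 to 88 UMIs each in all.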

Other observations

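A few red barcodes were rich in ferritin. In replicate 1 the highest held 31 Fth1 and 46 Ftl1 UMIs of 285 non-globin, non-mitochondrial UMIs, a summed level of 2702, at 92.0% globin and with 2 Alas2 UMIs. The next 2 had summed levels of 1309 and 1008. In replicate 2 the 3 highest had 1121, 832 and 626. All 6 had 0 UMIs of the neutrophil, monocyte, lymphocyte, platelet, mesenchymal and mesothelial lists. Of the red cell list without globins or members, the highest barcode of replicate 1 also had 0 UMIs. The next 2 of replicate 1 had 7 and 38 UMIs of that list, and the 3 of replicate 2 had 10, 9 and 22. All 6 barcodes were picked for their ferritin level, so the values are a description.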
